A study of Capra hircus with 2 samples.

Results

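miR-451, miR-144 and miR-486 are the microRNAs (miRNAs) best known from red blood cells, and they were followed here in sorted testicular cells of the goat. They were chosen by name: every entry called miR-451, miR-451a, miR-144 or miR-486 in either deposited table was taken, whatever its species prefix, and its reads were summed per name and arm. No entry was called miR-451a. This gave 5 of 1813 names with an arm, which are miR-451-5p, miR-451-3p, miR-144-5p, miR-144-3p and miR-486-5p, from 11 entries in the CD49f-positive table and 17 in the CD49f-negative table. The cells came from testes of 3 Saanen dairy goats aged 5 months, which carry no genetic change or treatment in the labels. After enzymatic release and a night of plating meant to remove Sertoli and myoid cells, the cells that stayed afloat were split with magnetic beads by CD49f, giving the CD49f-positive and the CD49f-negative group. CD49f, also called integrin alpha-6, sits on the cell surface and serves to enrich spermatogonial stem cells. miRNA reads do not measure it, so the sort was not checked here. Each group is 1 library, and whether the goats were pooled is not stated, so differences between the groups stand without replicates and without p-values. The CD49f-positive library had 8196507 named miRNA reads and the CD49f-negative library 3064462.

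miR-144 and miR-451 are made from 1 shared primary transcript, which, in the mouse, the transcription factor GATA1 switches on as red blood cells form. miR-451 is the textbook miRNA made without Dicer: its hairpin is too short for that enzyme, so AGO2 cuts the 3′ side of the stem, and the 3′ end of the miRNA is then trimmed back base by base. miR-144 follows the usual Dicer route. miR-486 lies within the ankyrin gene ANK1 in mammals and is abundant in red blood cells and in muscle.

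Both libraries held the miR-451 and miR-144 hairpins side by side on the goat genome, in the build of the deposited files, whose name is not given in the sources used here. The miR-451 hairpin was placed at chr19:19580569-19580639 on the minus strand and the miR-144 hairpin at chr19:19580718-19580813 on the same strand, with 78 bases between them. The RefSeq table of the goat assembly ARS1.2 lists MIR451 and MIR144 with the same lengths of 71 and 96 bases, and the same spacing of 78 bases. In that table the pair lies between the protein-coding genes ERAL1 and FLOT2. That table lists 2 of the 3 miRNAs. The main miR-486 entry, with 99.8% of the miR-486-5p reads in each library, was matched to the macaque hairpin, and 0% of the miR-486 reads lay at a known hairpin placed on the goat genome.

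The 2 hairpins are shown because the place of the miRNA within them differs. They are given 5′ to 3′, credited to the deposited files. Capitals in the miR-451 hairpin mark the known miRNA, and capitals in the miR-144 hairpin mark the sequence listed for each arm.
miR-451 hairpin: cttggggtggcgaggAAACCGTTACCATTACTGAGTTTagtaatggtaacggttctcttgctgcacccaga
miR-144 hairpin: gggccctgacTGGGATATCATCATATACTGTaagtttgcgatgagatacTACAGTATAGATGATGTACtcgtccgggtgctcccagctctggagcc
In the deposited folding the miR-451 hairpin has a terminal loop of 4 bases, from base 34 to base 37. The known 23-base miRNA starts at base 16, runs along the 5′ side up to the loop, crosses all 4 loop bases and ends on the first base of the 3′ side, at base 38. The miR-144 hairpin has a loop of 6 bases, from base 38 to base 43, and neither of its arms reaches into it. The deposited folding energy is -47.1 kcal/mol for miR-451 and -39.7 kcal/mol for miR-144, and 49.3% and 50% of their bases are C or G.

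**Figure D1:**
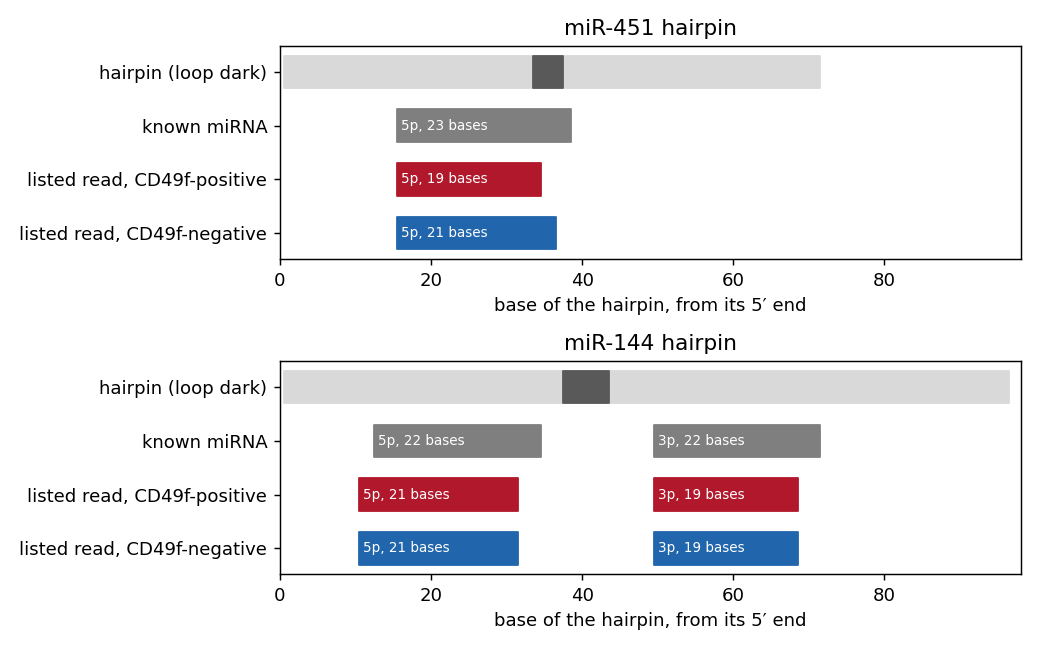
Extent of the known miRNAs (gray) and of the listed reads in the CD49f-positive library (red) and the CD49f-negative library (blue) along the miR-451 and miR-144 hairpins, with the terminal loop in dark gray; the horizontal axis counts bases from the 5′ end of the hairpin. The miR-451 read ended at base 34 in the CD49f-positive library and at base 36 in the CD49f-negative library, while both miR-144 reads had the same ends in both libraries.

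The files list 1 read per hairpin arm, the one with the highest mapped score per the column description. These reads are printed because their ends carry the differences described here. Capitals mark the seed, bases 2 to 8, with which a miRNA pairs to its targets.
miR-451-5p, known in cow: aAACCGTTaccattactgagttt
miR-451-5p, CD49f-positive: aAACCGTTaccattactga
miR-451-5p, CD49f-negative: aAACCGTTaccattactgagt
miR-144-5p, known in Chinese hamster: gGATATCAtcatatactgtaag
miR-144-5p, both libraries: tGGGATATcatcatatactgt
miR-144-3p, known in cow: tACAGTATagatgatgtactag
miR-144-3p, both libraries: tACAGTATagatgatgtac
miR-486-5p, both libraries: tCCTGTACtgagctgccccgagt
No pair of members shares a seed. Of all other names, miR-451b-5p alone had a listed read with the seed AACCGTT, with 3 reads over both libraries. It lies opposite the miR-451 hairpin, at chr19:19580571-19580632 on the plus strand, and had 1.5 reads in each library. No other name had a listed read with the seed of the listed miR-144-5p, miR-144-3p or miR-486-5p, and no member shared a listed sequence with another name.

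The listed miR-451-5p was a shorter form in CD49f-positive than in CD49f-negative cells. It had 19 bases and 3891 copies in the CD49f-positive library, which is 29.5% of the 13173.5 reads of its entry (95% interval 28.8 to 30.3). It had 21 bases and 1620 copies in the CD49f-negative library, 26.9% of 6023.5 reads (25.78 to 28.03). All of these copies began at the same base as the known miRNA and matched the hairpin without error. The 19-base form ended on the first loop base and the 21-base form on the third, against a known end past the loop. Among 154 arms at known goat hairpins with at least 50 copies of the listed sequence in both libraries, 137 had listed reads of equal length, 6 were shorter in CD49f-positive cells and 11 longer, and 2, miR-451-5p among them, were shorter by 2 bases or more. The files do not give the lengths of the remaining miR-451-5p reads. Whether the listed read is also the one with the most copies is not stated. The listed forms therefore do not show that miR-451-5p as a whole was shorter in CD49f-positive cells.

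miR-144-3p, the arm that in other mammals is usually taken as the main miRNA of its hairpin, was listed with the same 19 bases in both libraries, 3 fewer than the known 22. This form made up 378 of 476 reads in CD49f-positive cells, 79.4% (75.5 to 83.0), and 228 of 282 reads in CD49f-negative cells, 80.9% (75.8 to 85.3). Of the 154 arms, 29 in the CD49f-positive and 23 in the CD49f-negative library had a listed read with a larger share. The goat hairpin differs from the known cow sequence by A21C, counted from the 5′ end of the miRNA with the known base first, which lies beyond the end of the 19-base form. Listed reads at least 3 bases short of the known 3′ end in both libraries were found for 5 of the 154 arms. Listed reads of 19 bases or fewer in both libraries were found for 4 of them.

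The listed miR-144-5p started 2 bases before the known one in both libraries, and its seed was therefore GGGATAT and not GATATCA. It had 161 copies among 385 reads in CD49f-positive cells, 41.8% (36.8 to 46.9), and 72 among 206 reads in CD49f-negative cells, 35.0% (28.5 to 41.9). Of the 154 arms 138 started at the known base in both libraries, and miR-144-5p was the single arm that started 2 bases early in both. The known start is that of the Chinese hamster, and the remaining reads of the arm have starts that are not listed. The seed GATATCA of the known form was found in a listed read of 1 other name, miR-3074-3p, with 3 reads over both libraries.

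The listed miR-486-5p had 23 bases, 1 more than the known miRNA, and its last base matched none of 6 miR-486 hairpins from 5 species given in the files. The differences were C23T against the macaque hairpin and G23T against the cow, Chinese hamster and mouse hairpins and both pig hairpins, counted from the 5′ end of the miRNA with the hairpin base first. This form had 2693 copies in CD49f-positive cells, 26.3% of the reads of its entry (25.5 to 27.2), and 1116 copies in CD49f-negative cells, 22.95% (21.8 to 24.2). A goat miR-486 hairpin was not used here, so whether the goat hairpin has this base was not tested.

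miR-451-5p was the most abundant member in both libraries, followed by miR-486-5p, and miR-144 was far below them. miR-451-5p had 13175.5 reads in CD49f-positive cells, or 1607 reads per 1000000 named miRNA reads, written here as CPM (95% interval 1580 to 1635), and 6024.5 reads in CD49f-negative cells, or 1966 CPM (1916 to 2016). miR-486-5p had 10244 reads, or 1250 CPM (1226 to 1274), in CD49f-positive cells and 4871 reads, or 1590 CPM (1545 to 1635), in CD49f-negative cells. By reads, miR-451-5p stood at rank 42 of 1461 names with reads in CD49f-positive cells and rank 40 of 1300 in CD49f-negative cells, and miR-486-5p at rank 49 in CD49f-positive and rank 46 in CD49f-negative cells. The rank neighbours of miR-451-5p were miR-103-3p and miR-140-3p in CD49f-positive cells and miR-152-3p and miR-146b-5p in CD49f-negative cells. Those of miR-486-5p were miR-22-3p and miR-145-5p in CD49f-positive cells and miR-23b-3p and miR-199a-5p in CD49f-negative cells. All intervals are 95% Clopper-Pearson limits. They describe read sampling alone, because amplified reads that carry no molecular identifier may be copies of 1 molecule.

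miR-144-3p had 476 reads in CD49f-positive cells, or 58.1 CPM (53.0 to 63.5), and 285 reads in CD49f-negative cells, or 93.0 CPM (82.5 to 104). miR-144-5p had 386 reads, or 47.1 CPM (42.5 to 52.0), in CD49f-positive cells and 206 reads, or 67.2 CPM (58.4 to 77.1), in CD49f-negative cells. Both arms stood between rank 150 and rank 167 in both libraries. miR-144-3p lay between miR-411a-5p and miR-2285n-3p in CD49f-positive cells and between miR-503-5p and miR-200b-3p in CD49f-negative cells, while miR-144-5p lay between miR-455-3p and miR-365-3p in CD49f-positive cells and between miR-181b-5p and miR-19a-3p in CD49f-negative cells. The order of all 4 arms was the same in both libraries, and the intervals of neighbouring arms did not overlap within either library. miR-451-3p had 2 reads in CD49f-positive and 1 read in CD49f-negative cells, both under the floor of 3 reads, so no ratio is given for it.

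**Figure D2:**
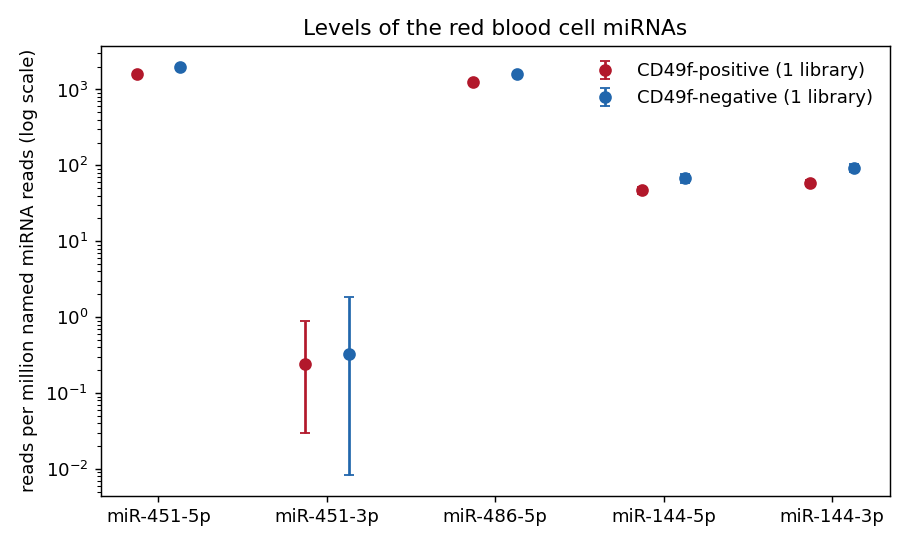
Level of each member arm in CPM, on a log axis, in the CD49f-positive library (red) and the CD49f-negative library (blue), with exact 95% intervals for counting error that are smaller than the point for the abundant arms. miR-451-5p and miR-486-5p lie above 1000 CPM in both libraries and both miR-144 arms between 47 and 93 CPM.

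The 2 neighbouring hairpins differed in their balance of arms. miR-451 had 0.0152% of its reads on the 3p arm in CD49f-positive cells (0.00184 to 0.0548) and 0.0166% in CD49f-negative cells (0.00042 to 0.0924), that is, 2 of 13177.5 and 1 of 6025.5 reads. miR-144 had both arms at close to equal levels, with 44.8% of its reads on the 5p arm in CD49f-positive cells (41.4 to 48.2) and 42.0% in CD49f-negative cells (37.5 to 46.5). These intervals overlap. In CD49f-positive cells 17 of 107 miRNAs with at least 1000 reads had a lower share on their rarer arm than miR-451. So had 11 of 84 in CD49f-negative cells. An arm with no entry was counted as 0, and a miRNA with far fewer reads than miR-451 can be lower only at 0. These counts therefore do not show how unusual so scarce an arm is. Few miRNAs had arms as even as those of miR-144. Of 145 miRNAs with at least 400 reads in CD49f-positive cells 4 had more even arms, as had 3 of 117 in CD49f-negative cells. The median share of the rarer arm among these was 0.896% in CD49f-positive and 0.697% in CD49f-negative cells.

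The mix of the 3 miRNAs differed little between the libraries. miR-451 made up 54.3% of all member reads in CD49f-positive cells (53.6 to 54.9) and 52.9% in CD49f-negative cells (52.0 to 53.8). miR-486 made up 42.2% in CD49f-positive cells (41.6 to 42.8) and 42.8% in CD49f-negative cells (41.9 to 43.7), and these intervals overlap. miR-144 made up 3.55% of member reads in CD49f-positive cells (3.32 to 3.79) and 4.31% in CD49f-negative cells (3.95 to 4.70). miR-144 and miR-451 share a primary transcript, and miR-451 had 15.3 times as many reads as miR-144 in CD49f-positive and 12.3 times as many in CD49f-negative cells. The miR-144 share of the reads of the pair was 6.14% in CD49f-positive cells (5.75 to 6.55) and 7.53% in CD49f-negative cells (6.91 to 8.20), a gap larger than counting error. These shares are taken inside a library and do not depend on how the libraries are scaled to each other.

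Scaled by the read total, all 4 measured arms had a smaller share of the reads in CD49f-positive than in CD49f-negative cells, by under 2-fold. With TMM scaling, however, miR-451-5p and miR-486-5p had the higher scaled level in CD49f-positive cells. All members together held 0.296% of the named miRNA reads in CD49f-positive cells (0.293 to 0.300) and 0.372% in CD49f-negative cells (0.365 to 0.378). That is a log2 ratio of -0.33 (-0.36 to -0.29), CD49f-positive over CD49f-negative, with 0.5 reads added to each count. miR-451-5p had a log2 ratio of -0.29 (-0.33 to -0.25), miR-486-5p one of -0.35 (-0.40 to -0.30), miR-144-5p one of -0.52 (-0.76 to -0.26) and miR-144-3p one of -0.68 (-0.89 to -0.46). In folds, miR-451-5p was 1.22 times lower and miR-144-3p 1.60 times lower. The intervals of miR-144-3p lay wholly below those of miR-451-5p and miR-486-5p. In sorted bulk cells fewer cells of a type and less RNA per cell cannot be told apart.

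In their ratios, the members lay in the middle of all measured miRNAs. To be called different, a miRNA needed 100 or more reads summed over both libraries (measured), a change of 2-fold or more, and an interval clear of equal shares. Of the 4 measured arms 0 met this rule with any scaling tried. Of the 301 measured miRNAs 26.6% did with the read total, 22.3% did with TMM and 20.6% did by the median of ratios. Ratios below equal shares by more than counting error were found for all 4 members and for 62.1% of the measured miRNAs. With a 1.5-fold rule 1 member, miR-144-3p, was lower, against 42.5% of the measured miRNAs. The median log2 ratio was -0.43 for the 4 members and -0.43 for the 301 measured miRNAs. Of these 301, 170 had a lower ratio than miR-451-5p, 158 a lower one than miR-486-5p, 138 a lower one than miR-144-5p and 112 a lower one than miR-144-3p.

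The direction depends on the scaling. TMM, which sets aside the most extreme ratios and abundances and was computed with edgeR on the 597 names with at least 10 summed reads, raised every log2 ratio by 0.45. miR-451-5p was then at 0.15 (0.11 to 0.20) and miR-486-5p at 0.098 (0.049 to 0.15). Both were above a ratio of 1, as were 39.9% of the measured miRNAs by more than counting error. miR-144-3p stayed below, at -0.24 (-0.45 to -0.017), as did 35.2% of the measured miRNAs. miR-144-5p, at -0.070 (-0.32 to 0.18), was not separable from a ratio of 1 at this depth. With TMM 2 of the 4 members and 148 of the 301 measured miRNAs had ratios below 1. Calls higher and lower at 2-fold over all measured miRNAs numbered 6 and 74 with the read total, 27 and 40 with TMM, 34 and 28 by the median of ratios, and 15 and 57 when the 10 most abundant miRNAs were left out of the total. By the median of ratios miR-144-5p was above a ratio of 1 too, at 0.081, with an interval that spans it.

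**Figure D3:**
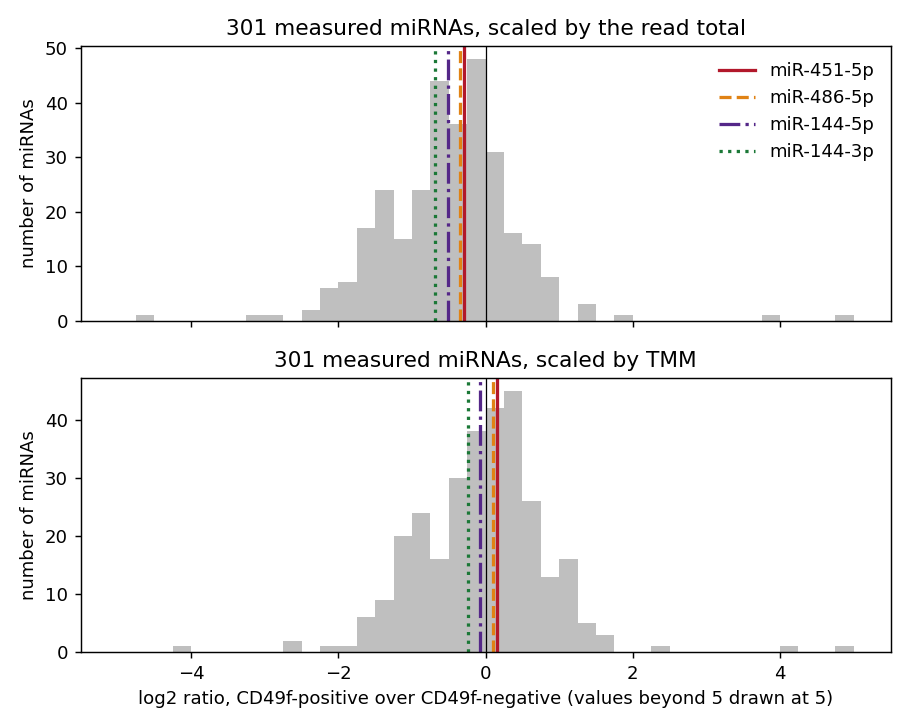
Number of measured miRNAs (gray bars) by log2 ratio, with CD49f-positive divided by CD49f-negative, with the 4 measured members as vertical lines, scaled by the read total (top) and by TMM (bottom). The members lie in the bulk of the 301 miRNAs in both panels, below 0 with the read total and on both sides of 0 with TMM.

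The miRNAs most like miR-451-5p in ratio were sought among 138 others with at least 1000 summed reads, by the absolute difference in log2 ratio over these 2 libraries. They were miR-5109-5p and miR-186-5p, both at -0.29, and miR-192-5p, also at -0.29. miR-186-5p had 9393 reads in CD49f-positive and 4295 in CD49f-negative cells. miR-192-5p had 6656 reads in CD49f-positive and 3046.5 in CD49f-negative cells. miR-5109-5p had 1859.5 reads in CD49f-positive cells, 97.2% of them mismatched, and 850 in CD49f-negative cells, 98.7% of them mismatched.

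Mismatched reads were rare for miR-451 and miR-144 and made up the larger part of miR-486. The authors count a read as mismatched when at least 1 base differs from the reference it was matched to. This reference is not alike for the members. At least 98.9% of the reads of each miR-451 and miR-144 arm lay at known goat hairpins. For miR-486-5p this was 0%, and its main entry was matched to the macaque hairpin. miR-451-5p had 660 mismatched reads in CD49f-positive and 853 in CD49f-negative cells. These made up 5.01% of its reads in CD49f-positive cells (4.64 to 5.40) and 14.2% in CD49f-negative cells (13.3 to 15.1). These intervals are far apart, and the difference was -9.15 percentage points, CD49f-positive minus CD49f-negative. miR-144-3p had 3.99% mismatched reads in CD49f-positive cells (2.42 to 6.16) and 9.12% in CD49f-negative cells (6.05 to 13.1). miR-144-5p had 8.81% in CD49f-positive cells (6.18 to 12.1) and 12.6% in CD49f-negative cells (8.41 to 17.9), and the intervals overlap for both arms. miR-486-5p had 57.2% in CD49f-positive cells (56.3 to 58.2) and 59.7% in CD49f-negative cells (58.3 to 61.1).

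The CD49f-negative library had more mismatched reads in general. The mismatched share was lower in CD49f-positive cells for 247 of 300 measured miRNAs found in both libraries, 82.3% of them, with a median gap of -5.63 percentage points, CD49f-positive minus CD49f-negative. A larger gap in that direction than that of miR-451-5p was found for 65 of them. miR-451-5p was among the miRNAs with the fewest mismatches in CD49f-positive cells, where 280 of the 300 had a higher share, and 261 had one in CD49f-negative cells. A higher share than that of miR-486-5p was found for 49 of them in CD49f-positive and 46 in CD49f-negative cells. That ranking sets miR-486-5p, matched mainly to the macaque hairpin, beside miRNAs whose reads lay mostly at known goat hairpins. The 23-base form with its unmatched last base held 46.1% of the 5847 mismatched reads of the main miR-486 entry in CD49f-positive cells and 38.5% of 2900 in CD49f-negative cells. A listed read with a mismatch in both libraries was found for 48 of the 300, or 16%.

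**Figure D4:**
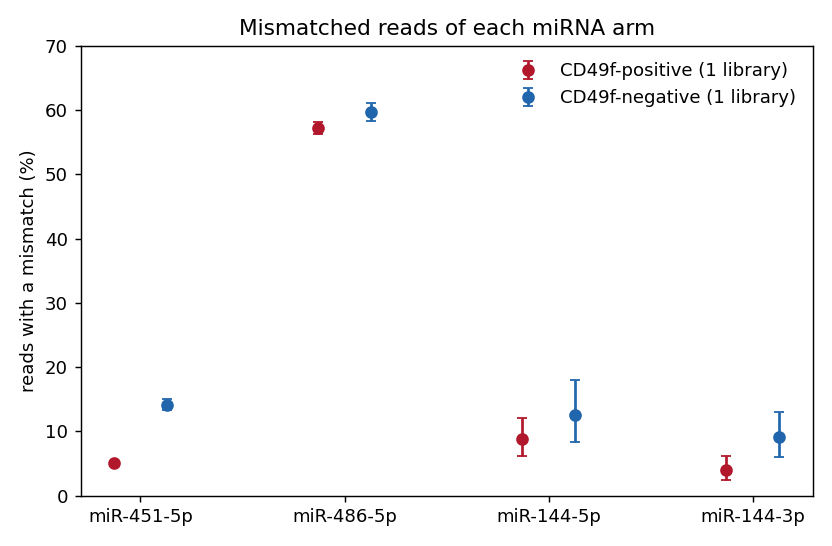
Percent of reads with at least 1 mismatch for each measured member in the CD49f-positive library (red) and the CD49f-negative library (blue), with exact 95% intervals for counting error. miR-451-5p stands at 5.01% in CD49f-positive and 14.2% in CD49f-negative cells, and miR-486-5p at 57.2% in CD49f-positive and 59.7% in CD49f-negative cells.

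Other miRNAs abundant in red blood cells, which many other cells also express, had ratios on both sides of the members. Of 10 listed arms 7 had at least 100 summed reads, and 3 of these were called lower, against 24.6% of all measured miRNAs, and 0 higher, against 1.99%. The median log2 ratio was -0.68, or -0.24 with TMM, against -0.43, or 0.013 with TMM, for all measured miRNAs. This median rests on 7 arms and on the names listed. The list leaves out miR-16a-5p, which is named outside the rule on reads. It was measured at -0.22 with the read total, above the median of the list. miR-92a-3p, of the miR-17-92 cluster and its paralogues, had 2399 CPM in CD49f-positive and 2698 in CD49f-negative cells, a log2 ratio of -0.17 (-0.21 to -0.13). miR-16b-5p, with 68.8% mismatched reads in CD49f-positive and 74.1% in CD49f-negative cells, was at -0.28 (-0.32 to -0.24), and miR-25-3p at -0.68 (-0.72 to -0.64). miR-107-3p, the fourth by reads, was at 0.063 (-0.16 to 0.29), not separable from equal shares. The 3 lower arms were miR-182-5p, miR-96-5p and miR-183-5p, which come from 1 cluster. They had 7.20 to 13.5 CPM in CD49f-positive and 15.3 to 34.3 CPM in CD49f-negative cells, and they are named because of their values. With TMM their log2 ratios were -0.97 for miR-182-5p, -0.89 for miR-96-5p and -0.65 for miR-183-5p, all short of 2-fold.

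miRNAs that hold back red cell formation were measured for 5 of 6 arms, with a median of -0.092, or 0.35 with TMM. With the read total 0 of the 5 were called, against 26.6% of all measured miRNAs. With TMM miR-155-5p was called higher, at 1.04 (0.80 to 1.29), as were 27 of the 301 measured miRNAs. miR-24-3p was at -0.092 (-0.11 to -0.070), miR-221-3p and miR-222-3p, which repress the stem cell factor receptor KIT in human red cell precursors, at -0.095 (-0.23 to 0.041) and 0.33 (0.12 to 0.55), and miR-155-5p at 0.59 (0.35 to 0.85) with the read total. The remaining measured arm, miR-150-5p, was at -0.72 (-1.10 to -0.33), or -0.28 with TMM, and is named outside the rule on reads. Of its reads 15.9% were mismatched in CD49f-positive and 54.8% in CD49f-negative cells. Of the 6 arms 3, namely miR-150-5p, miR-155-5p and miR-223-3p, are also in the white blood cell list.

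White blood cell miRNAs were present in both libraries. Their 7 arms held 0.0761% of CD49f-positive and 0.113% of CD49f-negative reads, and none was at 0 in either library. Ratios below 1 were found for 5 of 6 measured arms, against 226 of all 301 measured miRNAs, and with TMM for 5 of 6, against 148 of 301. The median was -0.71, or -0.27 with TMM. miR-342-3p was at -0.70 (-0.78 to -0.62), miR-146a-5p at -0.48 (-0.62 to -0.34) and miR-142-5p, a miRNA of nearly all blood lineages, at -0.79 (-0.98 to -0.60). miR-155-5p was at 0.59, or 1.04 with TMM and 1.19 by the median of ratios, past 2-fold with both of these. miR-223-3p, the defining miRNA of granulocytes, had 18 reads in CD49f-positive and 5 in CD49f-negative cells and is named as a defining marker, outside the rule on reads. The part of blood cells in the members' ratios was not tested.

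Endothelial miRNAs had ratios above 1. The 3 arms held 1.44% of CD49f-positive and 0.757% of CD49f-negative reads, and all 3 had ratios above 1 with both scalings, with a median of 0.92, or 1.37 with TMM. Ratios below 1 were found for 226 of all 301 measured miRNAs with the read total and for 148 with TMM. miR-126-3p, which is specific to vessel lining and blood-forming cells, was at 0.92 (0.90 to 0.94) and miR-126-5p, from the same hairpin, at 0.99 (0.91 to 1.06). miR-139-5p was at 0.46 (0.035 to 0.92). None of them reached 2-fold with the read total. With TMM miR-126-3p, at 1.37, and miR-126-5p, at 1.43, did, and by the median of ratios miR-139-5p did too, at 1.05. Called higher were 6 of the 301 measured miRNAs with the read total, 27 with TMM and 34 by the median of ratios.

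Muscle miRNAs, measured because miR-486 is also abundant in muscle, were scarce. The 6 arms held 0.0131% of CD49f-positive and 0.0179% of CD49f-negative reads, while miR-486-5p alone held 0.125% of CD49f-positive and 0.159% of CD49f-negative reads. The part of muscle cells in the miR-486 reads was not tested. miR-208b-3p, a heart and slow muscle miRNA, had 0 reads in CD49f-positive cells and 1 read in CD49f-negative cells and is named because it was at 0, outside the rule on reads. miR-133a-3p, of skeletal and heart muscle, was at -0.31 (-0.50 to -0.11), miR-499-5p at -0.15 (-0.59 to 0.33), and miR-1-3p at -1.10 (-1.44 to -0.76), called lower, but at -0.66 with TMM. Of the miR-1-3p reads 100% were mismatched in CD49f-positive and 97.7% in CD49f-negative cells, so its ratio rests almost wholly on reads that differ from the reference. miR-133b-3p had 66.7 reads in CD49f-positive and 30 in CD49f-negative cells, under the minimum. The smooth muscle list had miR-143-3p at 0.26 (0.26 to 0.27) and miR-145-5p at -1.24 (-1.28 to -1.20), or -0.79 with TMM, which come from 1 cluster. The list held 22.2% of CD49f-positive and 18.7% of CD49f-negative reads, of which miR-143-3p alone held 22.1% and 18.4%. The other arms of these hairpins, named outside the list, went the other way with the read total. miR-143-5p was at -0.76 and miR-145-3p at 0.56.

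**Figure D5:**
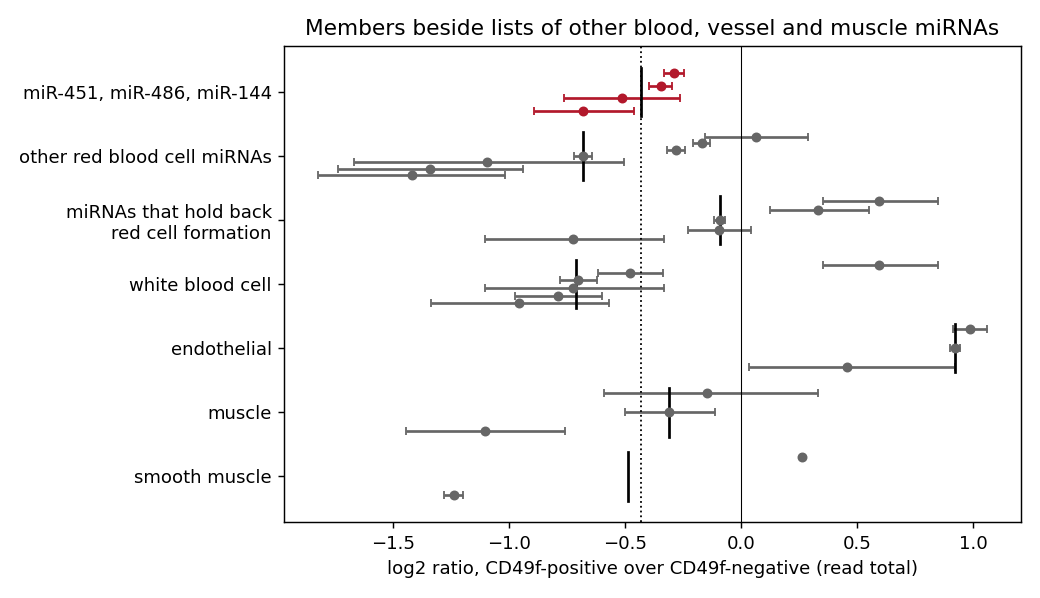
Ratio on a log2 axis, CD49f-positive divided by CD49f-negative with the read total, for each measured arm of miR-451, miR-486 and miR-144 (red) and of each marker list (gray), with 95% intervals for counting error; black bars are list medians and the dotted line is the median of all 301 measured miRNAs, -0.43. The members lie around that line, and the endothelial arms lie above 0.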

How the data were processed

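Small RNA from 2 libraries, made with the Illumina TruSeq kit per the labels' protocols, was analysed from the tables the authors deposited. These hold entries matched to miRBase hairpins of mammals, to goat sequence and to ESTs, per the file headers. Aligner and genome build: not given in the sources used here. The authors' reads per arm are expected counts, in which a read that fits several entries is divided among them. The deposited copies of a listed sequence are whole counts. The share of C and G in a hairpin is a percent computed by the authors. The values carry no normalization.

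Reads were summed by name and arm. An entry with no arm in its name took the arm of an entry with the same known sequence, or 1 arm from both libraries together. Named reads totalled 8196507 in the CD49f-positive and 3064462 in the CD49f-negative library, 2.67 times fewer, of which 99.0% and 98.4% lay at known goat hairpins. Unnamed entries, 0.555% and 0.611% of reads, were left out. Ratios are shares of named reads with 0.5 reads added. For their 95% intervals, expected counts were rounded to whole reads and the exact binomial limits of Clopper and Pearson taken for the CD49f-positive part of the sum. Scaling factors came from edgeR 4.0.16 (TMM) and DESeq2 1.42.0 (median of ratios) in R 4.3.3, on rounded counts; no test was run. Other steps used SciPy 1.17.1, pandas 2.3.3, numpy 2.4.6 and matplotlib 3.10.9 under Python 3.11.15. The calculation was tested on simulated data.

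The members and lists were chosen with earlier results of these data known. Named are every member arm with a read, the 4 arms with most reads of each list, the 3 miRNAs nearest miR-451-5p in ratio, neighbours in rank of reads, entries within 10 kb of a member hairpin, and names that share a seed. Exceptions are said to be so in the text. Alternatives were other scalings, reads with no mismatch, copies of listed sequences, known goat hairpins, other read minimums and folds, and 5 reads added.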

Additional observations from a re-analysis of the deposited data

How the results depend on the processing

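No paired analysis was possible because each group has 1 library. In what follows values are log2 ratios of CD49f-positive over CD49f-negative for miR-451-5p, miR-144-5p, miR-144-3p, miR-486-5p and all members summed, in that order. They were 0.15, -0.070, -0.24, 0.098 and 0.12 with TMM, and 0.31, 0.081, -0.084, 0.25 and 0.27 with the median of ratios. Without the 10 most abundant miRNAs in the total they were -0.0090, -0.23, -0.40, -0.065 and -0.045. The TMM value of the sum was 0.49 with factors from all names and 0.022 with factors from names with at least 100 summed reads, both chosen after seeing the data. Reads with no mismatch gave -0.22 for miR-451-5p and -0.27 for the sum, and copies of the listed sequences -0.29 for miR-486-5p. The other 16 of 36 alternative values lay within the interval of the reported one. Adding 5 reads, or keeping known goat hairpins for miR-451-5p and miR-144, alters the counts little, so those values could hardly move. The sum at known goat hairpins leaves out miR-486. The copies of miR-451-5p set a form of 19 bases in CD49f-positive against one of 21 bases in CD49f-negative cells. The number of members at least 2-fold different was 0 under every scaling, read set and minimum listed above and with a 4-fold rule, and 1 with a 1.5-fold rule. With 0 members at 2-fold, the 4-fold rule and the minimums of 10 and 1000 summed reads could give no other count. Members held 0.321% of CD49f-positive and 0.386% of CD49f-negative reads with no mismatch, and 0.173% and 0.216% at known goat hairpins, where miR-486 has no entry. The median of other red blood cell miRNAs was -0.24 with TMM. The 6 mismatched shares of miR-451-5p and miR-144 stayed within their intervals at known goat hairpins. These hairpins hold at least 98.9% of the reads of each arm, so the shares could hardly move. The cause of these shifts was not tested. The deeper CD49f-positive library gives narrower intervals, and with 386 and 206 reads miR-144-5p cannot be placed closer than about 0.25 on the log2 scale.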

Other observations

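Rare entries with member names add few reads. miR-451-5p had a second entry of 2 reads in CD49f-positive and 1 read in CD49f-negative cells, matched to the pig hairpin with bases before the known start. miR-144-3p had 3 reads beyond its goat hairpin in CD49f-negative cells, and miR-144-5p had 1 in CD49f-positive cells. For miR-486-5p, 17 reads in CD49f-positive and 9 in CD49f-negative cells lay outside the main entry, 99.8% of its reads being in that entry in both libraries. These include a sequence of 19 bases that the authors placed, with 1 mismatch, at places in the goat genome that are not known miRNA hairpins.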
